A study of Mus musculus with 20 samples.

Results

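The regions described here are stretches of the genome that carried H3K9me3 in wild-type (WT) mouse embryonic fibroblasts, lay outside the domains bound by PML, and were touched by no H3K9me3 region in fibroblasts without PML (KO). The members were chosen by the deposited H3K9me3 calls of both genotypes and the WT PML calls, as WT H3K9me3 regions on chromosomes 1 to 19 and X with a signal of at least 3 that shared no base with any KO H3K9me3 region or any WT PML region. The rule kept 6388 of the 20732 WT H3K9me3 regions. Of all WT regions, 12075 passed the signal minimum, and 11256 of those lay outside PML domains, so the WT-only regions made up 56.8% of these (95% Wilson interval 55.8% to 57.7%, which covers counting error only and treats regions as independent). The remaining 4868 regions outside PML domains were called in KO too and serve as the comparison. Since these lists chose the members, their absence from the KO H3K9me3 list is not a result.

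The study used embryonic fibroblasts at passage 10 to 15 on a C57BL/6 background. KO cells came from Pml-null mice, which lack PML in every cell, and WT cells came from wild-type mice. How many animals gave the cells was not stated. ChIP was done against H3, H3K9me3, H3K27me3 and PML, and against Flag-tagged or HA-tagged H3.3, a histone variant, and each target had 1 library in KO and 1 in WT. The cells used for H3.3 had been transfected with a plasmid for the tagged histone, so these libraries show where newly supplied H3.3 was placed, whereas RNA came from cells that were not transfected. RNA was given as 2 pairs of tables, 1 pair pooled by the authors from 3 numbered samples per genotype and 1 pair from a single unnumbered sample per genotype. No measurement had a replicate in these tables, so every difference below is one between single libraries or pooled values and was not tested.

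H3K9me3 is a methyl mark on the tail of histone H3 that is bound by HP1 proteins and is typical of heterochromatin, where it covers repeats, gene clusters and silent genes. H3K27me3 is set by Polycomb repressive complex 2 and marks genes that are silenced during development. H3.3 is a histone variant that is placed outside DNA replication. The HIRA complex places it at active genes, and ATRX with DAXX places it at heterochromatin. PML builds nuclear bodies in which DAXX and ATRX are found.

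Few annotated promoters lay in the WT-only regions, and 5 that belong to genes named below are printed first. At such promoters a WT-only call and an RNA value can be read at the same gene. Other named genes with a start in a WT-only region, such as Tmem267 and Adgrg2, both higher in KO in the pooled pair, are not printed. The 5 printed were picked after values were seen, and each was lower in KO in the pair it is named for. Each runs from 250 bases before to 50 bases after an annotated start, in RefSeq's GRCm38.p6 annotation, whose assembly is that of mm10, on the gene's own strand, and CpG dinucleotides are in capitals. They are Gdf15 at chr8:70632046-70632345 (minus strand), Igf1 at chr10:87860861-87861160 (plus strand), Tfpi at chr2:84474125-84474424 (minus strand), Trim30d at chr7:104507800-104508099 (minus strand) and Ppm1e at chr11:87358945-87359244 (minus strand).
Gdf15 promoter: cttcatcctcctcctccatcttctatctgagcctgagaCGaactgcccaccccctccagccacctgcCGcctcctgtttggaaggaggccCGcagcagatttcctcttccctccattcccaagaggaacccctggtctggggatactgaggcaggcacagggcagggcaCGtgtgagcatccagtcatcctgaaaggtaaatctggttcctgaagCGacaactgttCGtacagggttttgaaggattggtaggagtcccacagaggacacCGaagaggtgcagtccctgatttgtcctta
Igf1 promoter: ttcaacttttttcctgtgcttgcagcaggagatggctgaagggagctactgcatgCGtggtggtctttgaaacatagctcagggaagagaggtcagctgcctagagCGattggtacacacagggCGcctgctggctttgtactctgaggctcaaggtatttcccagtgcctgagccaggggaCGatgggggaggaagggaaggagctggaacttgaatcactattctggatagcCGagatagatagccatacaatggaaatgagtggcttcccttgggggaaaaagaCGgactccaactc
Tfpi promoter: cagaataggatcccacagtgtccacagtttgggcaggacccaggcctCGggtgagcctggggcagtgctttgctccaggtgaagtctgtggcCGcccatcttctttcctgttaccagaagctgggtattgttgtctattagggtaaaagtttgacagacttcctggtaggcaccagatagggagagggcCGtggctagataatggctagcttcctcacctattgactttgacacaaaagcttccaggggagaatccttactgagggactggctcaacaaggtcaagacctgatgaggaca
Trim30d promoter: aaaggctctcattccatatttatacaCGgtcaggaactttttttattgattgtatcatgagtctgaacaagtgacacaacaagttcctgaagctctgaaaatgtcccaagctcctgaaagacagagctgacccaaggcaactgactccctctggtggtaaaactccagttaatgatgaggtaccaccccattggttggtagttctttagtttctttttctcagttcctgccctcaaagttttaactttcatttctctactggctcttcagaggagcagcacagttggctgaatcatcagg
Ppm1e promoter: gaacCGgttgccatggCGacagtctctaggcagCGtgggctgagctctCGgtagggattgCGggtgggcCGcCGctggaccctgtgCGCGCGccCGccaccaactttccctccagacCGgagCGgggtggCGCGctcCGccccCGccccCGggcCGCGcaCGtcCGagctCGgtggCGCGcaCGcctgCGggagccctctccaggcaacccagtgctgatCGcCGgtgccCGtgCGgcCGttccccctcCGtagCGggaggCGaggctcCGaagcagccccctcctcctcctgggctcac
The Ppm1e promoter held 36 CpG and the other 4 held 7, 6, 3 and 1, in the order Gdf15, Igf1, Tfpi and Trim30d. The motif searched was CG, which reads the same on both strands. The 76 promoters whose start lay in a WT-only region had a median of 5 CpG and 51.5% G and C. The 482 promoters in regions called in KO too had a median of 6 CpG and 51.3% G and C, and all 21044 promoters had a median of 13 CpG and 56.7%. At least 1 CpG was present in 97.4% of promoters in WT-only regions and in 95.5% of all promoters.

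Of the 1005 annotated miRNA hairpins, 12 lay wholly in a WT-only region, and 6 of these were on chromosome 12 in the imprinted Dlk1-Dio3 locus, where maternally expressed miRNAs lie antisense to the paternally expressed gene Rtl1. Their mature forms are shown because 2 WT-only regions hold them all, with the seed (bases 2 to 8) in capitals. One arm is printed for each hairpin, together with miR-100-5p from a region on chromosome 9, and the sequences are from RefSeq.
miR-431-5p: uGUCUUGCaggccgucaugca
miR-433-3p: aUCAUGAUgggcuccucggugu
miR-127-3p: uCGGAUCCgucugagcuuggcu
miR-434-3p: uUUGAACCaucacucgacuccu
miR-341-3p: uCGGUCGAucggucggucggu
miR-1188-5p: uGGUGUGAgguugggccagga
miR-100-5p: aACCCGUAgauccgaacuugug
No seed was shared among the 20 mature forms listed for the 12 hairpins, which gave 20 distinct seeds. Mir431, Mir433, Mir127 and Mir434 lay in 1 region of 6 kb on chromosome 12, chr12:109589001-109595000, which also touched Rtl1. In KO this region was wholly covered by H3.3-Flag, H3.3-HA and H3 calls and by no H3K27me3, whereas in WT it was wholly covered by H3K27me3 and by none of the other calls. Mir341 and Mir1188 lay in a second 6 kb region, chr12:109610001-109616000. There KO had HA and H3 calls over the whole length and no H3K27me3, and WT had H3K27me3 over 83.3% of the length and no H3.3 or H3 call. Since bulk H3 was called in KO over both regions, an exchange of histone variant and a change in overall H3 recovery cannot be told apart there. Mir100 and Mirlet7a-2 lay in an 8 kb region, chr9:41531001-41539000, with H3.3-Flag over its whole length in both genotypes, HA over none of it in KO and all of it in WT, and H3K27me3 in neither. The RNA tables used here gave no values for these miRNAs, and the protein-coding gene Rtl1 had 0.198 FPKM in KO and 0.141 FPKM in WT in the pooled pair, with 2.35 FPKM in KO and 2.70 FPKM in WT in the unnumbered pair.

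The WT-only regions were short. In all they covered 48.7 Mb with a median of 6 kb, an interquartile range of 4 to 9 kb and a longest region of 114 kb. The regions called in KO too covered 101.1 Mb, with a median of 12 kb and a longest region of 825 kb. Regions of 1 to 6 kb made up 20.5% (1 to 3 kb) and 33.0% (4 to 6 kb) of the WT-only set, against 7.29% and 17.6% of the comparison. Regions of 26 kb or more made up 2.11% of the WT-only set and 20.6% of the comparison. A longer region has more bases that a KO region could touch, so length enters the choice of members directly. Signal did not separate the sets in the same way, with a median of 7.25 in WT-only regions and 7.14 in those called in KO too.

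**Figure D1:**
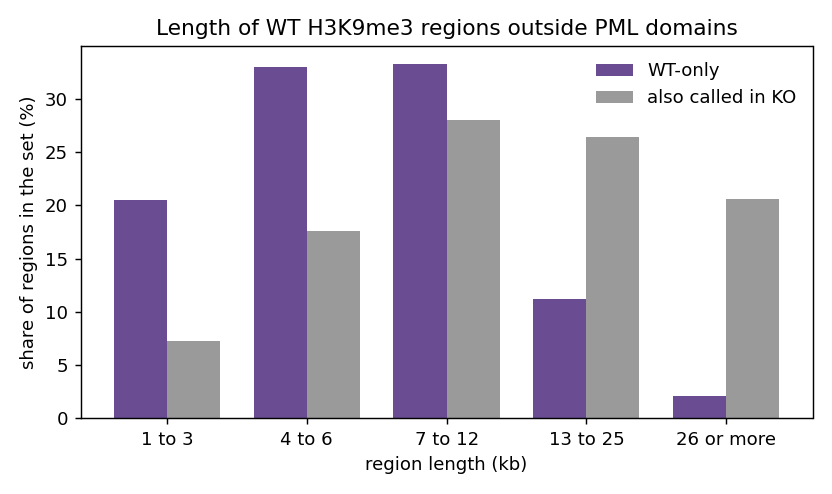
Share of regions (%) in 5 length classes (kb) for WT H3K9me3 regions outside PML domains with a signal of at least 3, drawn for the 6388 WT-only regions (purple) and the 4868 regions called in KO too (grey). WT-only regions are mostly of 4 to 12 kb, and the class of 26 kb or more holds 2.11% of them against 20.6% of the comparison.

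The KO and WT lists were not called at the same level of faintness. In KO, 0.223% of the 10748 H3K9me3 regions had a signal under 3, against 39.1% of the 18481 WT regions outside PML domains. Median length was 24 kb in KO and 12 kb in WT. Read depth is unknown for every library, and how far the calling of fainter and shorter regions in WT sets the number of WT-only regions was not tested. The same rule applied the other way, KO regions of signal 3 or more that touched no WT H3K9me3 and no WT PML region, gave 1381 regions of median 28 kb covering 64.1 Mb, so there were fewer KO-only regions but they covered more of the genome. At the edge of the rule, 463 members with a signal from 3 to under 3.5 had a median of 10 kb, and 457 regions just outside it, from 2.5 to under 3, had a median of 11 kb. H3K27me3 covered 41.6% in KO and 44.7% in WT of the length just inside, and 37.4% in KO and 40.4% in WT of the length just outside.

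The share of WT regions outside PML domains that were missing from the KO list varied by chromosome. It was highest on chromosome 12, with 284 of 350 regions (81.1%, interval 76.7% to 84.9%), followed by chromosomes 16 (72.7%), 1 (72.0%) and 18 (71.7%), whose intervals overlap one another. It was lowest on chromosome 5, with 104 of 685 (15.2%, interval 12.7% to 18.1%), apart from the next lowest, chromosome 17 (41.5%, interval 36.4% to 46.7%). KO H3K9me3 regions covered 115.2 Mb of chromosome 5, more than of any other chromosome, against 13.7 Mb of chromosome 12. The X chromosome had 234 of 544 (43.0%, interval 38.9% to 47.2%). Without chromosome 5 the share over all chromosomes was 59.4%.

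**Figure D2:**
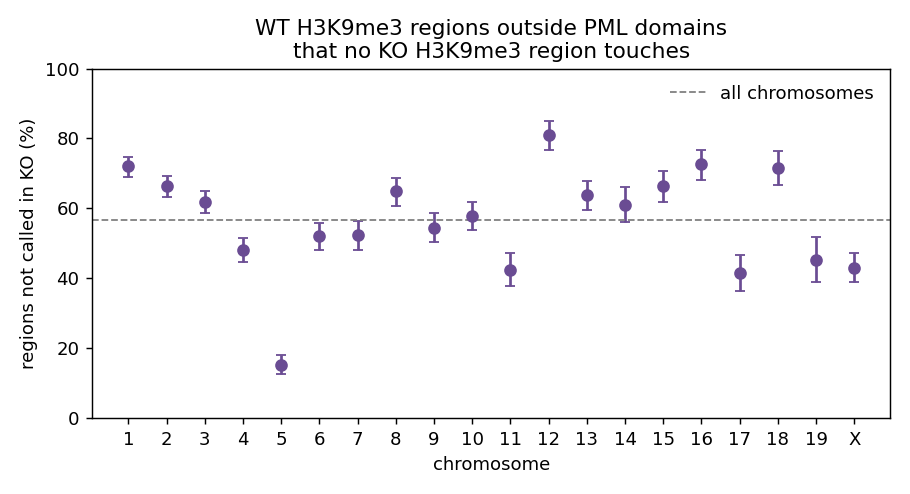
Share (%) of WT H3K9me3 regions outside PML domains, with a signal of at least 3, that no KO H3K9me3 region touches, for each chromosome, with 95% Wilson intervals as bars and the share over all chromosomes, 56.8%, as a dashed line. Chromosome 5 stands lowest at 15.2% and chromosome 12 highest at 81.1%.

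Most WT-only regions lay well away from KO H3K9me3 regions and from PML domains. The nearest KO H3K9me3 region lay at a median of 92 kb, and 121 members (1.89%) lay within 10 kb of one. The nearest WT PML region lay at a median of 2.17 Mb, with 159 members within 100 kb, against 1.82 Mb for regions called in KO too. In the 100 kb on either side of a WT-only region, H3K9me3 covered a median of 1.5% in KO and 12% in WT. Around regions called in KO too it covered 21.0% in KO and 15.0% in WT, so the surroundings of the WT-only regions also held little KO H3K9me3. These distances and flanks come from the lists that chose the members and are given as a description. Regions of the KO PML library touched 0 members.

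H3K27me3 was common in the WT-only regions and about as common in KO as in WT over all chromosomes. It covered 40.5% of their length in KO and 40.9% in WT, and touched 2529 regions in KO (39.6%, interval 38.4% to 40.8%) and 2582 in WT (40.4%, interval 39.2% to 41.6%). It was called in both genotypes in 1830 regions, in KO alone in 699, in WT alone in 752 and in neither in 3107. Thus 48.6% of the WT-only regions had no H3K27me3 call in either genotype. That they were called for H3K9me3 in WT and not in KO follows from the rule. Regions called in KO too had H3K27me3 over 60% of their length in KO and 60% in WT, and touching 60.8% and 67.6% of regions in KO and WT. The 286 WT-only regions inside PML domains had 36.3% of their length covered in KO and 17.5% in WT.

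The near equality over all chromosomes hid opposite differences. On chromosomes 1 to 9 and X, H3K27me3 covered 51.6% of the WT-only length in KO and 46.7% in WT. On chromosomes 10 to 19 it covered 19.5% in KO and 29.9% in WT, and it was lower in KO on each of these chromosomes, with the widest gap on chromosome 15 (16.9% in KO and 34.9% in WT). Chromosome 1 was the only one of the first set that was lower in KO, with 48.2% in KO and 51.3% in WT, and chromosome 5 had the widest gap of that set, 56.2% in KO and 33.9% in WT. Regions called in KO too split in the same way, with 66.6% in KO and 63.6% in WT on chromosomes 1 to 9 and X, and 44.3% in KO and 51.5% in WT on chromosomes 10 to 19. When the deposited signal of a WT H3K9me3 region was multiplied by its length in 1 kb bins, the product was whole (within 0.05) for 100% of regions on chromosomes 1 to 9 and X and for 14.5% on chromosomes 10 to 19, so the signal scale may not be the same in both sets, and its part in this split was not tested. On X, where one copy is silenced and coated with H3K27me3 in female cells, 230 of 234 WT-only regions carried H3K27me3 in KO and 212 in WT, with 98.5% of the length covered in KO and 90% in WT. The sex of the cells used for ChIP was not stated.

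Newly supplied H3.3 with the Flag tag covered a smaller share of the WT-only regions than H3K27me3 did. H3.3-Flag covered 12.3% of their length in KO and 10.2% in WT, and touched 1303 regions in KO (20.4%, interval 19.4% to 21.4%) and 1231 in WT (19.3%, interval 18.3% to 20.3%). It was called in both genotypes in 972 regions, in KO alone in 331, in WT alone in 259 and in neither in 4826. The difference kept its direction in both chromosome sets, with 10.5% in KO and 8.78% in WT on chromosomes 1 to 9 and X, and 15.7% in KO and 12.9% in WT on chromosomes 10 to 19. In regions called in KO too, Flag covered 7.95% of the length in KO and 6.64% in WT. In WT-only regions inside PML domains it covered 0.17% in KO and 0.0848% in WT, and 3 of those 286 regions were touched in KO and 2 in WT.

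The HA tag gave a wider difference that rested on faint calls. H3.3-HA covered 8.2% of the WT-only length in KO and 2.02% in WT, and touched 10.4% of regions in KO and 3.99% in WT. With HA regions of signal 3 or more alone, it touched 1.42% in KO and 3.96% in WT, so the direction turned. The same limit holds for HA calls at single regions named in the text, since the signal of those calls is not given. Regions called in KO too had HA over 16.2% of their length in KO and 1.74% in WT. H3 calls, the reference for histone recovery, also covered more of the WT-only regions in KO, with 7.65% of the length in KO and 4.14% in WT. Among the 5706 members that no H3 region of either genotype touched, H3.3-Flag touched 18.7% in KO and 17.8% in WT, and H3.3-HA 6.94% in KO and 2.98% in WT.

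**Figure D3:**
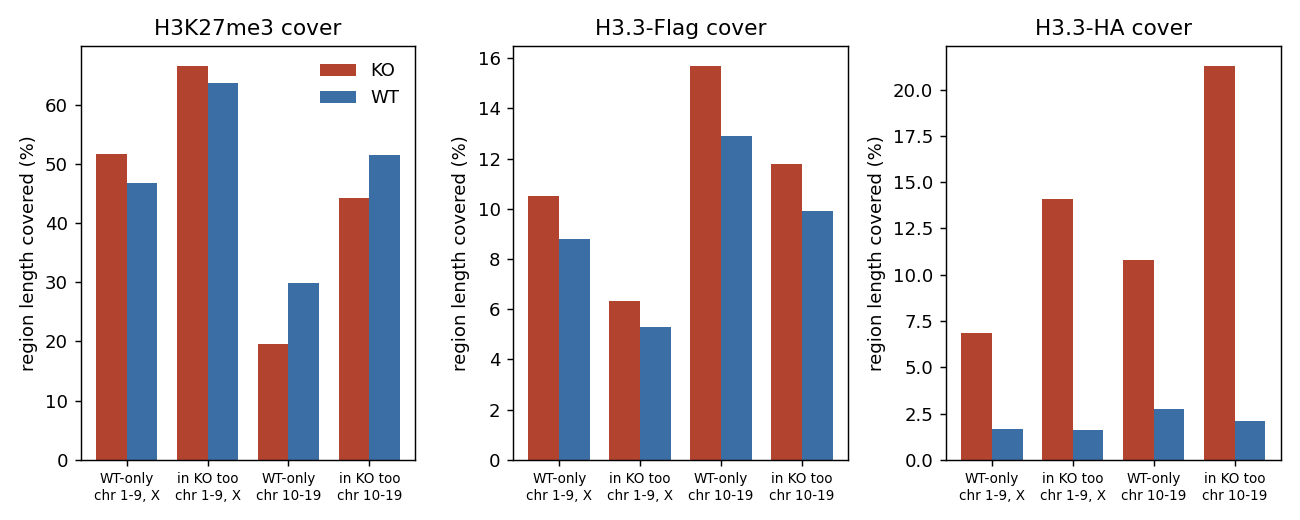
Share (%) of region length covered by H3K27me3, H3.3-Flag and H3.3-HA calls of any signal in KO (red) and WT (blue) libraries, for WT-only regions and regions called in KO too, on chromosomes 1 to 9 and X and on chromosomes 10 to 19, with 1 library per bar. H3K27me3 is higher in KO on the first chromosome set (51.6% and 46.7% in WT-only regions) and lower in KO on the second (19.5% and 29.9%), while H3.3-Flag is higher in KO in all 4 groups of regions.

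Region length went with which mark was found. In WT-only regions of 1 to 3 kb, H3.3-Flag covered 26.1% of the length in KO and 23.4% in WT, and H3K27me3 18.8% in KO and 23.0% in WT. In those of 7 to 12 kb the shares were 10.1% in KO and 7.76% in WT for H3.3-Flag, and 47.3% in KO and 45.0% in WT for H3K27me3. Regions called in KO too showed the same order, from 26.7% in KO and 23.0% in WT for H3.3-Flag at 1 to 3 kb to 14.1% in KO and 11.1% in WT at 7 to 12 kb. At equal length H3K27me3 covered less of the WT-only regions than of those called in KO too, 47.3% against 52.8% in KO and 45.0% against 57.9% in WT at 7 to 12 kb. Signal went the same way as shortness. The 279 WT-only regions with a signal of 20 or more had a median of 2 kb, H3.3-Flag over 29.5% of their length in KO and 28.5% in WT, and H3K27me3 over 14.4% in KO and 19.3% in WT.

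**Figure D4:**
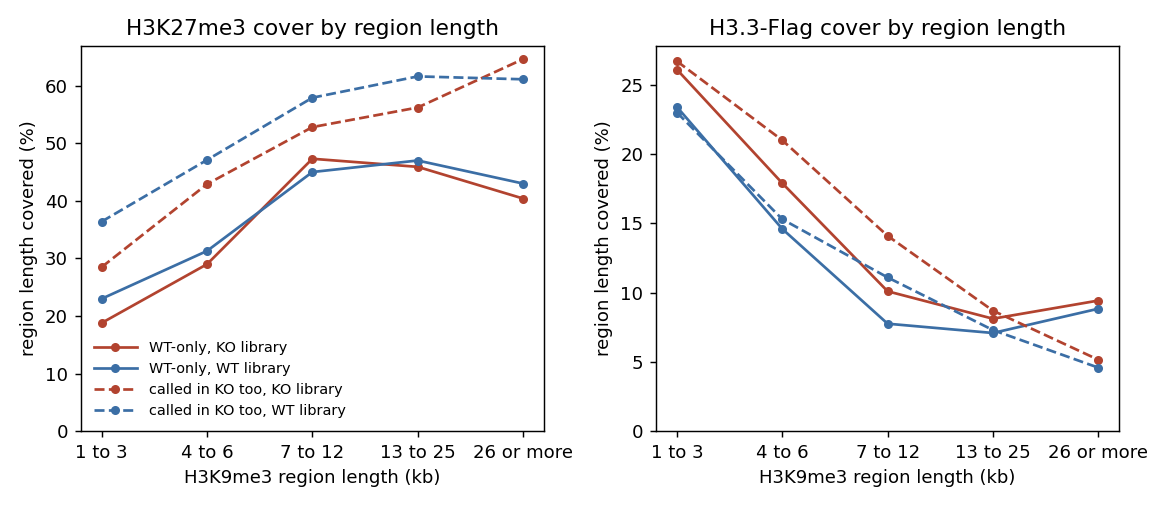
Share (%) of region length covered by H3K27me3 (left) and H3.3-Flag (right) in KO (red) and WT (blue) libraries against the length of the H3K9me3 region (kb), for WT-only regions (solid) and regions called in KO too (dashed). H3.3-Flag cover is highest in the shortest regions, at 26.1% in KO and 23.4% in WT for WT-only regions of 1 to 3 kb, where H3K27me3 cover is lowest.

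H3.3-Flag and H3K27me3 mostly occupied different WT-only regions. In KO, 192 of the regions carried both, 1111 H3.3-Flag alone, 2337 H3K27me3 alone and 2748 neither. In WT, 261 carried both, 970 H3.3-Flag alone, 2321 H3K27me3 alone and 2836 neither. H3K27me3 was found in 14.7% of the H3.3-Flag regions and 46.0% of the others in KO, and in 21.2% and 45.0% in WT. In regions called in KO too these shares were 39.5% and 67.1% in KO, and 51.2% and 72.5% in WT.

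The WT-only regions rarely held the start of a gene. A protein-coding gene was touched by 2892 of them (45.3%), and 38.6% of their length lay in such genes, against 49.5% and 31.9% for regions called in KO too. An annotated start site lay in 62 WT-only regions (0.971%, interval 0.758% to 1.24%) and in 289 regions called in KO too (5.94%, interval 5.31% to 6.64%). These shares are per region and not adjusted for length, and the WT-only regions were shorter, with a median of 6 kb against 12 kb. The median distance to a start site was 105.1 kb for WT-only regions and 42.7 kb for the others. Of 21627 protein-coding genes, 2029 (9.38%) were touched and 77 had at least 50% of their length in WT-only regions. A start site was available for 17273 of these genes, and 69 (0.399% of the 17273) had one in a WT-only region. Genes without an available start site could not be counted there. In all, 118 genes met one or both of the conditions on length and start site.

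The genes that held the most WT-only regions were very long ones, and they were picked for that count after their values were seen. Dmd, which encodes dystrophin on X, held 16 regions over 2390.4 kb, followed by Il1rapl1 and Lrrc4c, both of which encode synaptic adhesion proteins, with 11 each. Dmd had 1.05 FPKM in KO and 1.99 FPKM in WT in the pooled pair, and 5.82 FPKM in KO and 3.22 FPKM in WT in the unnumbered pair. Lrrc4c had 3.3 FPKM in KO and 0.778 FPKM in WT in the pooled pair, and 1.71 FPKM in KO and 0.575 FPKM in WT in the unnumbered pair. The other 12 of the 15 genes with the most regions each held 7 to 9. Median length was 264.4 kb for the 483 genes with at least 2 regions, and 104.3 kb for all 1872 genes holding the middle of at least 1 region.

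Host genes of WT-only regions with H3.3-Flag were nearly all expressed, and those of regions with H3K27me3 often were not. Among the 972 regions with H3.3-Flag in both genotypes, 70.4% had their middle in a gene, and 93% of the measured host genes had at least 1 FPKM in KO or WT of the pooled pair. Among the 4826 with H3.3-Flag in neither, 35.9% lay in a gene and 64.0% of the host genes reached 1 FPKM. For H3K27me3 the order was the other way, with 30.3% in a gene and 40.6% of host genes at 1 FPKM or more among the 1830 regions marked in both, against 57.1% and 87.1% among the 3107 marked in neither. The unnumbered pair gave 94.1% and 70.5% for H3.3-Flag in both and in neither, and 48.0% and 90.3% for H3K27me3. Host genes of regions called in KO too were not read in this way. Of all measured protein-coding genes, 54.3% reached 1 FPKM in KO or WT of the pooled pair and 57.0% in the unnumbered pair. Median RNA differences of the host genes were small in every class, from 0.05 to 0.31 on the log2 scale in the pooled pair and from -0.09 to 0.05 in the unnumbered pair. Shares of 2-fold differences varied more. In the pooled pair 2.38% to 16.2% of host genes with at least 1 FPKM were higher in KO and 7.14% to 24.3% lower, beside 6.38% and 15.7% of all genes. In the unnumbered pair the ranges were 0.99% to 4.65% and 1.14% to 8.72%, beside 1.49% and 3.73%.

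The longest WT-only region spanned 114 kb on chromosome 1, chr1:88153001-88267000, over the Ugt1a cluster, whose alternative first exons give enzymes that conjugate glucuronic acid to bilirubin, steroids and drugs. No H3K27me3 was called there in KO and all of it was covered in WT, and H3.3-Flag covered none of it in KO and 3.51% in WT. The region also overlapped Hjurp, the chaperone of the centromeric histone CENP-A, and Mroh2a and Dnajb3. A 57 kb region on chromosome 3 lay in Fat4, which encodes a giant cadherin, with H3.3-Flag over 73.7% in KO and 64.9% in WT. A 56 kb region on chromosome 13 held Tcstv1 and Gm21761 and was wholly covered by H3K27me3 in both genotypes. A 55 kb region on chromosome 18 lay in Tcf4, a bHLH transcription factor gene, with H3.3-Flag over 49.1% in KO and 29.1% in WT and no H3K27me3. A 51 kb region on chromosome 7 overlapped the imprinted gene Snrpn, with H3K27me3 over 52.9% in KO and 7.84% in WT, and a 49 kb region on chromosome 2 held the olfactory receptor gene Olfr1318, with H3K27me3 over all of it in KO and none in WT. The other 4 of the 10 longest, between 50 and 110 kb, touched no protein-coding gene.

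The 10 regions of highest signal, from 45.3 to 123.2, were 1 to 22 kb long and all lay on chromosomes 10 to 19, the set whose signal scale may differ. The highest, of 17 kb on chromosome 13 at chr13:119597001-119614000, carried none of the other marks in either genotype. It overlapped Tmem267, which encodes a transmembrane protein, and reached beyond the end of that gene at position 119610459. Others lay in the cell adhesion gene Cadm2, in AW554918 and in Fnip1, which encodes a folliculin partner, and 6 touched no protein-coding gene. The Fnip1 region was wholly covered by H3.3-Flag in both genotypes. Of the 10, 1 carried H3K27me3 in both genotypes and 1 in WT alone.

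RNA was read for genes with much of their length in WT-only regions and for genes with a start site in one, and the median differences of these sets were small and of opposite sign. RNA values are FPKM, which scale fragments to transcript length and to the mapped total, and differences are KO minus WT of log2(FPKM + 1), which understates the change of low genes. A gene was used where it had at least 1 FPKM in KO or WT of the pair. In the pooled pair, 31 of the 77 genes with at least 50% of their length in WT-only regions passed, of which 3 (9.68%) were higher in KO by 2-fold or more and 8 (25.8%) lower, with a median difference of -0.09. Over all 10763 protein-coding genes used in that pair, 6.38% were higher by 2-fold or more and 15.7% lower, and the median was 0.06. In the unnumbered pair 30 of the 77 passed, 0 of them 2-fold higher and 1 2-fold lower, with a median of -0.10, against 1.49% higher and 3.73% lower of 11302 genes and a median of 0.01. Counts this small do not separate the covered genes from the rest.

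Among the 69 genes with a start site in a WT-only region, 16 were used in the pooled pair, with 3 (18.8%) higher in KO by 2-fold or more and 4 (25%) lower, beside 6.38% and 15.7% of all genes, and a median difference of 0.15. In the unnumbered pair 19 were used, with 0 higher and 2 (10.5%) lower, beside 1.49% and 3.73%, and a median of 0.14. Of the 2029 genes touched anywhere, 1449 were used in the pooled pair, with 97 (6.69%) higher and 127 (8.76%) lower and a median difference of 0.18. In the unnumbered pair 1532 were used, with 25 (1.63%) higher and 42 (2.74%) lower and a median of 0.01. The touched genes were long, with a median of 91.7 kb against 23.9 kb for all genes used in the pooled pair. Of the 118 genes covered by at least 50% or with a start site in a region, 18 were measured in neither pair and 51 stayed under 1 FPKM in every table. Of the remaining 49, 42 passed in both pairs, and on the log2(FPKM + 1) scale 0 of these were at least 2-fold different in both pairs, in the same or in opposite ways. With 0.1 added in place of 1, Dusp27 was 2-fold lower in KO in the pooled pair and 2-fold higher in the unnumbered pair.

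The 2 pairs were themselves unlike. Summed FPKM was 409078 in KO and 948032 in WT in the pooled pair, against 499754 in KO and 514537 in WT in the unnumbered pair. Pml RNA was 10.2 FPKM in KO and 15.0 in WT in the pooled pair, and 4.22 in KO and 7.62 in WT in the unnumbered pair, over the whole gene, which does not check a deletion of part of it. Of 10 fibroblast markers, 9 exceeded 1 FPKM in both tables of the pooled pair, the exception being Thy1 at 0.1 in KO and 0.141 in WT, and all 10 exceeded it in the unnumbered pair. Xist, made from the silent X of female cells, had 0.0517 FPKM in KO and 19.5 in WT in the pooled pair, and the Y-linked Ddx3y had 7.67 in KO and 0.0384 in WT, so sex and genotype cannot be told apart in that pair. In the unnumbered pair both genes were present in both genotypes, with Xist at 8.25 FPKM in KO and 5.89 in WT and Ddx3y at 11.4 in KO and 21.7 in WT. The 10 macrophage markers were near 0 in the pooled pair, with sums of 0.973 in KO and 1.09 in WT, but in the unnumbered pair they summed to 4.07 FPKM in KO, where 1 of 10 reached 1 FPKM, and to 98.6 in WT, where all 10 did. In bulk RNA, fewer cells of a type and less RNA per cell cannot be told apart.

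In the pooled pair Tfpi, Zfp637, Gdf15 and Matn4 had the most negative differences among the covered genes. Tfpi, which encodes the inhibitor of the tissue factor pathway of clotting, had 0.519 FPKM in KO and 39.5 in WT, a difference of -4.74. In the unnumbered pair it had 33.4 in KO and 40.3 in WT. The WT-only region of 7 kb lay over 1 of its 2 annotated starts and was wholly covered by H3.3-Flag in both genotypes. Zfp637, a zinc finger gene, had 13.9 FPKM in KO and 140.0 in WT (difference -3.24), against 26.3 in KO and 31.3 in WT in the unnumbered pair, and 55.1% of it lay in an 8 kb region of signal 20.6. Gdf15, a stress-induced hormone of the TGF-beta family, had 0.459 FPKM in KO and 11.6 in WT (difference -3.11), but 8.45 in KO and 5.67 in WT in the unnumbered pair. Both of its annotated starts lay in a 2 kb region, chr8:70631001-70633000, where KO had HA over the whole length and no Flag, and WT had Flag over the whole length and no HA. The 2 tags thus differed in opposite directions there. Most KO HA calls in WT-only regions were faint, and the signal of this one is not given.

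Matn4, which encodes an extracellular matrix protein, had 0.0603 FPKM in KO and 6.62 in WT in the pooled pair (difference -2.85), and 3.76 in KO and 6.96 in WT in the unnumbered pair (difference -0.74). Its 10 kb region was wholly covered by both H3K27me3 and H3.3-Flag in both genotypes, unlike most WT-only regions. Tbx2, a T-box transcription factor of limb and heart development, had 0.0975 FPKM in KO and 2.98 in WT, and 2.46 in KO and 3.47 in WT in the unnumbered pair, with H3K27me3 over its whole 5 kb region in both genotypes. Olfml2b, an olfactomedin-domain matrix protein, had 17.5 FPKM in KO and 58.3 in WT, and 34.4 in KO and 37.5 in WT in the unnumbered pair. These genes were lower in KO in both pairs, but by at least 2-fold in the pooled pair alone. Dusp27 had 0.0701 FPKM in KO and 2.10 in WT in the pooled pair, and the other order in the unnumbered pair, with 6.27 in KO and 2.93 in WT. Ppm1e, a protein phosphatase gene, had 0.579 FPKM in KO and 3.34 in WT, with 0.506 in KO and 0.29 in WT in the unnumbered pair.

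Tmem267 and Adgrg2 had the largest positive differences of the pooled pair. Tmem267 had 31.6 FPKM in KO and 6.16 in WT in the pooled pair (difference 2.19), and 5.35 in KO and 8.61 in WT in the unnumbered pair (difference -0.60). Besides its overlap with the region of highest signal, both of its annotated starts lay in a 3 kb WT-only region that was wholly covered by H3.3-Flag in both genotypes. Adgrg2, an adhesion receptor gene on X, had 2.82 FPKM in KO and 0.0748 in WT (difference 1.83), and 7.88 in KO and 6.59 in WT in the unnumbered pair. Its start lay in a 13 kb region with H3K27me3 over its whole length in both genotypes and H3.3-Flag over 84.6% in KO and 46.2% in WT.

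In the unnumbered pair the widest difference was that of Igf1, which encodes insulin-like growth factor I. It had 7.96 FPKM in KO and 30.7 in WT there (difference -1.82), and 5.29 in KO and 4.25 in WT in the pooled pair. The start site used for it, at position 87861111, lay at the edge of a 33 kb region on chromosome 10, chr10:87861001-87894000. The annotated gene begins outside that region, at position 87858265. In the region H3.3-Flag covered 51.5% in KO and 33.3% in WT, and H3.3-HA 90.9% in KO and none in WT, with HA calls of any signal counted. H3K27me3 covered none of it in KO and 18.2% in WT. Macrophages also make Igf1, and the macrophage markers differed in the same direction in this pair, where their part in the Igf1 value was not tested. Acot2, which encodes a mitochondrial acyl-CoA thioesterase, had 5.70 FPKM in KO and 19.3 in WT (difference -1.60), and 2.00 in KO and 2.05 in WT in the pooled pair. Trim30d, of an interferon-induced TRIM family, was listed at 0 in KO and had 1.69 FPKM in WT, and 1.12 in KO and 1.02 in WT in the pooled pair. Its start lay in a 32 kb region with H3.3-Flag over none of it in KO and 59.4% in WT. Ank2, Fzd4, Unc13b and Tubb6 completed the named genes of this pair, with differences of -0.89, -0.81, 0.64 and 0.54, each under 2-fold on the log2(FPKM + 1) scale. Of these, Ank2 had 3.32 FPKM in KO and 7.01 in WT, and Unc13b had 1.14 in KO and 0.377 in WT, in the unnumbered pair. In the pooled pair the differences were 0.22 for Ank2, -1.11 for Fzd4, 0.09 for Unc13b and -0.99 for Tubb6.

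**Figure D5:**
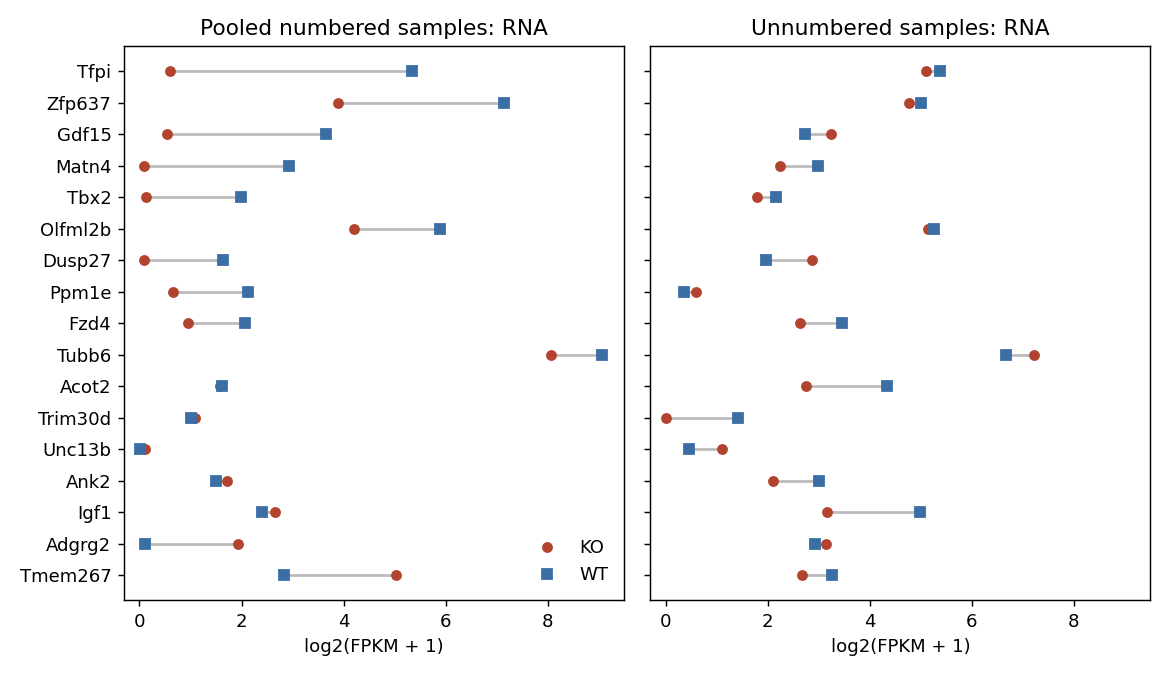
RNA as log2(FPKM + 1) in KO (red circles) and WT (blue squares) for the 17 named genes with at least 50% of their length, or a start site, in a WT-only region, in the pooled numbered pair (left) and the unnumbered pair (right), with 1 value per genotype and pair. The wide gaps of Tfpi, Zfp637, Gdf15 and Tmem267 in the pooled pair are narrower in the unnumbered pair, and that of Igf1 in the unnumbered pair is narrower in the pooled one.

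Lists of clustered genes were set beside both kinds of regions. Of 397 zinc finger genes named Zfp, 33 (8.31%) were touched by a WT-only region and 172 (43.3%) by a region called in KO too, against 9.38% and 11.2% of all protein-coding genes. The 6 with at least 50% of their length in WT-only regions were Zfp281, Zfp358, Zfp39, Zfp52, Zfp553 and Zfp637. Of the 57 clustered protocadherin genes, which give neurons their surface identity, 0 were touched by WT-only regions and 56 by regions called in KO too. Olfactory receptor genes numbered 5 of 1110 (0.45%), among them Olfr1314, Olfr1316 and Olfr1318 in neighbouring regions on chromosome 2, and vomeronasal receptor genes 0 of 355. Regions called in KO too also touched few of them, with 23 olfactory (2.07%) and 15 vomeronasal (4.23%) receptor genes. Zfp52 was the 1 of these 6 with a pooled difference of 2-fold or more upward, at 9.38 FPKM in KO and 3.86 in WT (difference 1.10), and it had 4.84 in KO and 7.47 in WT in the unnumbered pair. Of the other lists, 1 of 39 Hox genes (Hoxb7), 2 of 53 keratin genes (Krt8 and Krt78), 5 of 63 serpin genes and 1 of 22 germline genes (Tex11) were touched. These shares, 2.56%, 3.77%, 7.94% and 4.55%, were each below the 9.38% of all protein-coding genes. Regions called in KO too touched 2.56%, 0%, 11.1% and 22.7% of these lists, against 11.2% of all protein-coding genes. Hoxb7 lay 87.7% inside a 4 kb region with H3K27me3 over its whole length in both genotypes, and had 13 FPKM in KO and 11.9 in WT in the pooled pair and 3.94 in KO and 5.91 in WT in the unnumbered pair. Of the touched Zfp genes used, 1 was 2-fold higher and 1 lower of 28 in the pooled pair, beside 6.38% and 15.7% of all genes, and 0 of 30 differed by 2-fold in the unnumbered pair, beside 1.49% and 3.73%.

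Collagen genes, which encode the main matrix proteins of fibroblasts, were touched in 11 of 44 cases (25%), against 9.38% of all protein-coding genes. Regions called in KO too touched 12 of them (27.3%), against 11.2% of all protein-coding genes. The WT-only regions lay inside these long genes, and 0 of the 44 had 50% of its length or a start site in one. Of the 7 touched collagen genes used in the pooled pair, 0 were 2-fold higher in KO and 5 were 2-fold lower, beside 6.38% and 15.7% of all genes, with a median difference of -1.59. Of the 7 used in the unnumbered pair 0 were higher and 2 lower, beside 1.49% and 3.73%, with a median of -0.20. Collagen genes that no WT-only region touched were not read as a set. Among them, Col1a1 had 990.2 FPKM in KO and 3353.7 in WT in the pooled pair. In that pair Col1a2 had 718.3 in KO and 1103.3 in WT, and Col3a1 had 285.0 in KO and 204.0 in WT. Col6a3, a chain of collagen VI, was lower in both pairs, with 29.1 FPKM in KO and 119.7 in WT in the pooled pair and 41.3 in KO and 88.5 in WT in the unnumbered pair. Among the touched collagen genes, Col14a1 had the widest difference of the unnumbered pair, with 0.632 FPKM in KO and 7.11 in WT (difference -2.31). It stayed under 1 FPKM in the pooled pair, with 0.175 in KO and 0.335 in WT. Col12a1 had 18.3 FPKM in KO and 57.2 in WT in the pooled pair, and 367.7 in KO and 485.5 in WT in the unnumbered pair. Col5a2, a chain of fibrillar collagen V, had 202.7 FPKM in KO and 279.2 in WT in the pooled pair and the other order, 1207.1 in KO and 862.9 in WT, in the unnumbered pair.

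Of 29 imprinted genes, whose expression depends on the parent of origin, 5 (17.2%) were touched by WT-only regions, against 9.38% of all protein-coding genes. Regions called in KO too touched 10 (34.5%), against 11.2%. The 5 touched by WT-only regions were Rtl1, Sgce, Snrpn, Ube3a and Impact. The 4 kb region in Sgce was wholly covered by H3K27me3 in KO and not at all in WT, and Sgce had 23.2 FPKM in KO and 23.2 in WT in the pooled pair and 20.7 in KO and 32.2 in WT in the unnumbered pair. A second region in Snrpn, of 13 kb, had H3K27me3 over 69.2% in KO and 53.8% in WT. The 7 kb region in Ube3a, a ubiquitin ligase gene, had H3K27me3 over 71.4% in both genotypes. Impact, on chromosome 18, had 22.6 FPKM in KO and 8.49 in WT in the pooled pair (difference 1.31) and 52.4 in KO and 44.3 in WT in the unnumbered pair (difference 0.24), with H3.3-Flag over none of its 12 kb region in KO and 33.3% in WT. H3K27me3 was higher in KO at Sgce and Snrpn, on chromosomes 6 and 7, and lower in KO at the 2 chromosome 12 regions with Rtl1 and the miRNAs. These are the directions of their chromosome sets as a whole. It did not differ at Ube3a on chromosome 7, with 71.4% in both genotypes, or at Impact on chromosome 18, with 0% in both.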

How the data were processed

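ChIP and RNA data of PML KO and WT mouse embryonic fibroblasts were used as deposited, with 1 library per ChIP target and genotype. The submitters' processing notes list mm10 as the build, and Bowtie 1.0.0, Cuffdiff 2.2.1, Cufflinks 2.2.1 and TopHat2 2.0.8b as tools. What called the regions is not given in the sources used here. In the files deposited by the authors, region lists for H3K9me3, H3K27me3 and H3.3 carry a signal per region in column 5, and H3 and PML lists carry a score, which was not used. The RNA tables deposited by the authors hold FPKM, another unit that keeps no depth, and 0 columns of single replicates were present. Depth is unknown, which leaves the precision of every value open.

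Regions were intersected by at least 1 bp in pandas 2.3.3 and numpy 2.4.6 under Python 3.11.15, and the arithmetic was tested on simulated intervals. Mark cover used calls of any signal. Genes and start sites were those of RefSeq GRCm38.p6. FPKM lines naming several genes (267 or 271 per table) were left out, and 19817 genes of the pooled pair and 19818 of the unnumbered pair matched protein-coding genes, 1352 and 1350 of them through a synonym. With 1 value per genotype no test was made, and a 2-fold difference is a description.

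The members, gene lists and comparisons were chosen with earlier results of these data known. Genes were named by rule: those in the 10 longest and 10 highest-signal regions, the 10 largest RNA differences per pair among covered genes with at least 1 FPKM, and list members in the regions. Collagen genes, host genes, miRNAs and the promoters printed were picked after values were seen. Alternatives varied the signal minimum, chromosomes, distances, mark signal, pseudocount and FPKM minimum. Leaving out X or chromosome 5 was added after seeing the data.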

Additional observations from a re-analysis of the deposited data

How the results depend on the processing

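No paired analysis was possible because the tables pool the numbered RNA samples and every ChIP target has 1 library per genotype. For the same reason no sample could be left out. Of 77 alternative values, 40 stayed within the Wilson interval of the reported share or within 1.5 times the reported count. The WT-only share of regions outside PML domains, 56.8%, was 53.7% with no signal minimum and 59.4% without chromosome 5. It was 54.5% on chromosomes 1 to 9 and X and 60.8% on chromosomes 10 to 19. Members at 10 kb or more from KO H3K9me3 made up 55.7% of all 11256 regions outside PML domains that passed the signal minimum. Only the members were filtered by that distance, so this value follows from the rule and does not check the share. H3K27me3 touched 39.6% in KO and 40.4% in WT as reported. It touched 41.6% in KO and 44.5% in WT with no signal minimum, 37.2% and 37.1% with a minimum of 5, 51.9% and 47.4% on chromosomes 1 to 9 and X, 19.8% and 29.3% on chromosomes 10 to 19, 37.4% and 38.5% without X, and 30.9% and 34.2% with mark regions of signal 3 or more. In regions without H3 calls it touched 40.8% in KO and 39.9% in WT. H3.3-Flag touched 19% in KO and 19% in WT with no signal minimum, so the higher share of regions touched in KO was no longer seen. By length it still covered more in KO under that setting, 7.95% against 6.81% in WT. It touched 21.7% in KO and 20.3% in WT with a minimum of 5, and 18.4% and 17.3% on chromosomes 1 to 9 and X. On chromosomes 10 to 19 it touched 23.6% and 22.4%, and in regions without H3 calls 18.7% and 17.8%. H3.3-HA touched 8.46% in KO on chromosomes 1 to 9 and X, 13.4% in KO and 4.69% in WT on chromosomes 10 to 19, 6.94% and 2.98% in regions without H3 calls, and 1.42% in KO with mark regions of signal 3 or more, against 3.96% in WT. For the pooled pair, the count of covered genes lower in KO was 5 with an FPKM minimum of 5 and 4 for genes with a start site in a region, against 8. For the unnumbered pair, the count higher in KO was 1 with a pseudocount of 0.1, against 0, and the count lower was 2 for genes with a start site in a region, against 1. The cause of these shifts was not tested.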
